A study of Mus musculus with 13 samples.

Results

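Lipid uptake and intracellular lipid handling was followed through 10 genes in visceral (epididymal) white fat of male mice: Lpl, Gpihbp1, Angptl4, Vldlr, Cd36, Fabp4, Fabp5, Lipa, Msr1 and Olr1. They were chosen by name, with earlier results of these data known, so their counts and p-values are not those of a blind choice. For each, the probe set annotated to that gene alone was used, and where there were several, the one with the highest mean over all arrays. All 10 were measured, among 18820 genes in all. The groups were P2X7 knockout mice on high-fat diet (4 arrays), wild-type mice on high-fat diet, knockout mice on chow and wild-type mice on chow (3 arrays each). Knockout mice were B6.129P2-P2rx7tm1Gab/J, which lack the ATP-gated channel P2X7 and had 7 generations of backcrossing to B6, and wild-type mice were C57Bl/6. All mice were 18 weeks old and had eaten chow with 13% of energy from fat, or a diet with 60%, for 12 weeks from the age of 6 weeks. The design asked how obesity and loss of P2X7 alter gene expression in fat. The labels do not say whether an array held 1 animal or a pool, so the p-values cover the spread among these samples, which may be partly technical.

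Fat cells take up fatty acids that lipoprotein lipase (Lpl) frees from triglyceride in lipoproteins. The enzyme is made mostly by adipocytes, carried across capillary endothelium by Gpihbp1 and inactivated by the secreted protein Angptl4. The VLDL receptor (Vldlr) binds triglyceride-rich particles, Cd36 moves long-chain fatty acids across the cell membrane, and Fabp4 and Fabp5 bind them inside the cell. Macrophages take up modified lipoproteins through the scavenger receptors Msr1 (SR-A) and Olr1 (LOX-1), and break down their cholesteryl esters and triglycerides in lysosomes with the acid lipase Lipa. Cd36, Fabp4, Fabp5 and Lpl are made by macrophages too.

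Each value is a log2 expression level, normalised by the authors. Over the 13 arrays the median of all genes lay between 6.56 and 6.69. P2rx7, the targeted gene, read 8.90 to 9.14 in knockout and 9.36 to 9.70 in wild-type mice on high-fat diet, against 7.90 to 8.23 in knockout and 7.91 to 8.41 in wild-type mice on chow. No source used here places its probe set against the disrupted region, so it checks nothing about the genotype labels. The mean of 12 adipocyte markers was 10.97 to 12.10 over all arrays and that of 7 epididymis transcripts 3.44 to 3.93. On the first principal component, knockout high-fat replicate 1 (23.0, the others 32.1 to 35.0) and wild-type high-fat replicate 2 (23.2, the others 41.1 and 41.8) lay nearest to the chow arrays (-46.1 to -32.6). The mean of 7 liver transcripts was 5.46 to 6.72 in knockout and 5.87 to 7.72 in wild-type mice on high-fat diet, against 6.06 to 6.23 in knockout and 7.57 to 8.63 in wild-type mice on chow. Of 7 liver transcripts, 0 fell with diet in knockout mice (0 to 1 over the alternatives) and 4 in wild-type mice (1 to 6). Of 7 mesothelial genes, 7 fell in knockout mice (3 without chow replicate 1, 4 without chow replicate 2) and 7 in wild-type mice (4 without chow replicate 3, 3 with the liver mean as a covariate). Of 9 fibroblast genes, 5 rose in knockout mice and 4 in wild-type mice (4 to 5 over the alternatives), while 1 fell in knockout mice (0 to 1) and 2 in wild-type mice (0 to 3). Of 7 smooth muscle genes, 1 rose and 2 fell in knockout mice (1 to 2 fell), and 5 fell in wild-type mice (2 to 6). With the liver mean as a covariate 1 fell in knockout mice and 2 in wild-type mice. Of 8 lymphocyte and mast cell genes, 2 rose in knockout mice and 2 in wild-type mice (0 to 3, 0 with the liver mean as a covariate). Of 7 epididymis transcripts, 1 fell in each genotype, Lcn5 in knockout and Lcn9 in wild-type mice, and neither passed for the interaction. In wild-type mice 0 of them fell with the liver mean as a covariate. Beside these counts, 14.5% of all genes rose and 19.7% fell with diet in knockout mice, and 17.7% and 18.1% in wild-type mice. The part of the liver transcripts in the results below was not tested, except by a fit with their mean as a covariate, given where it changed a member's call or moved a list's count by over 1.5 times. On chow that mean did not overlap between genotypes, so there the fit cannot separate it from genotype. In wild-type mice only high-fat replicate 2 (7.72) reached into the chow range. There the mean was partly aligned with diet, and the fit can take up part of the diet effect.

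With high-fat diet, the scavenger receptors Msr1 and Olr1, the lysosomal lipase and 1 fatty acid binding protein rose. Msr1, Lipa, Olr1 and Fabp5 rose in both genotypes, by 1.03 to 1.82 on the log2 scale in knockout mice and by 1.15 to 2.54 in wild-type mice. Gpihbp1 fell in both genotypes, Fabp4 fell in wild-type mice, and Lpl, Cd36, Vldlr and Angptl4 did not pass the test in either. In knockout mice 4 of the 10 genes rose and 1 fell, against a background of 14.5% of all 18820 genes that rose and 19.7% that fell (34.2% in all). In wild-type mice 4 rose and 2 fell, against 17.7% and 18.1% (35.8% in all). With arrays centred on their medians the background in wild-type mice was 2832 risen and 4523 fallen genes, in place of 3327 and 3409. The median log2 change over the 10 genes was 0.16 in knockout and 0.25 in wild-type mice, and over all genes -0.06 and -0.03. The arrays of the 2 diets did not overlap for 7 of the 10 genes in knockout mice (43% of all genes) and for 6 in wild-type mice (43.3%). These samples are whole tissue, in which fewer or more cells of a type and less or more RNA per cell cannot be told apart.

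**Figure D1:**
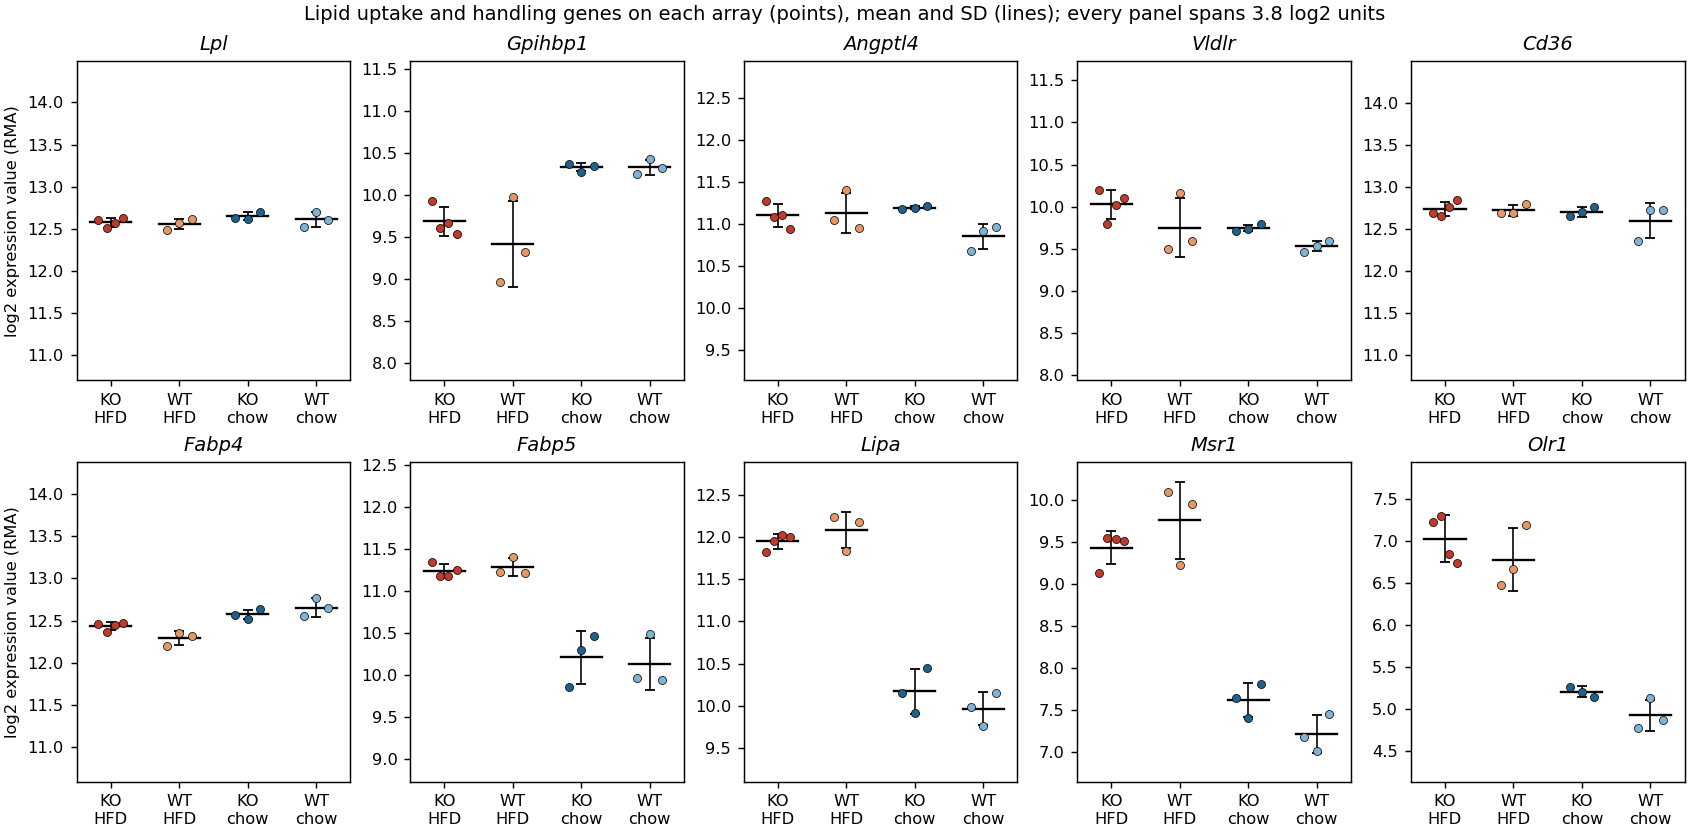
Log2 expression value of each of the 10 genes (vertical axes, each spanning the same range) on every array (points) by group, with the group mean (horizontal line) and SD (bar). KO, P2X7 knockout; WT, wild type; HFD, high-fat diet. Fabp5, Lipa, Msr1 and Olr1 read higher on every high-fat array than on any chow array, Gpihbp1 lower, and Lpl and Cd36 showed diets that overlap.

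**Figure D2:**
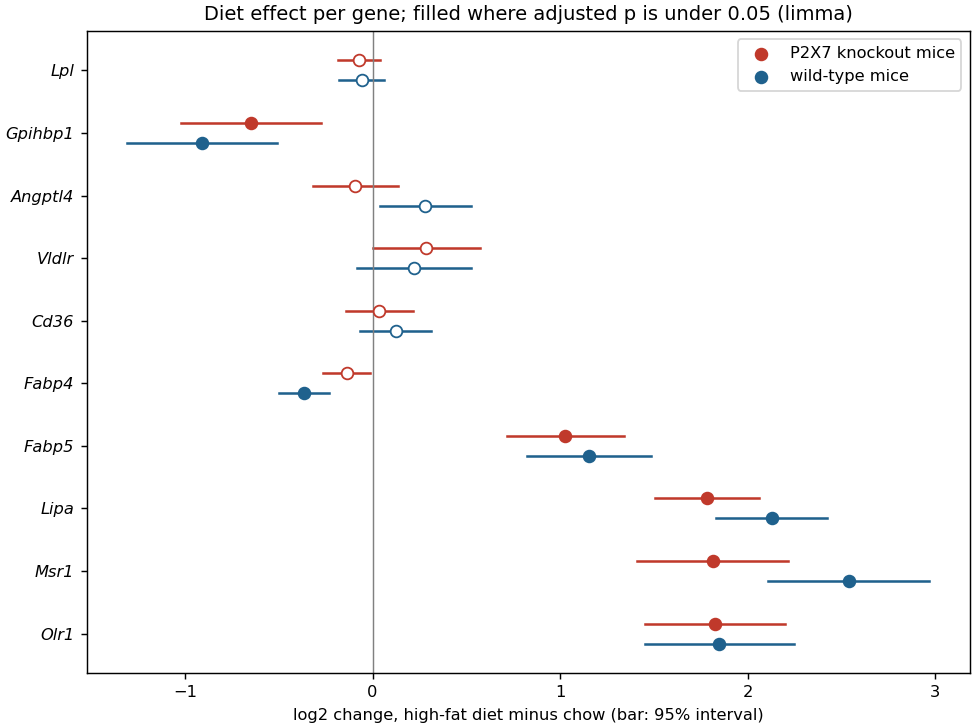
Log2 change with high-fat diet (high-fat minus chow, horizontal axis) of each gene in knockout (red) and wild-type (blue) mice, with its 95% interval from limma. Filled points passed an adjusted p of 0.05; the intervals of Lpl reach no further than -0.19 to 0.06.

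Lpl, the enzyme itself, did not pass the test for diet. On high-fat diet Lpl read 12.60, 12.50, 12.57 and 12.62 in knockout mice and 12.48, 12.57 and 12.61 in wild-type mice, against 12.62, 12.62 and 12.70 in knockout and 12.52, 12.70 and 12.61 in wild-type mice on chow. The diets overlapped within each genotype, and all knockout chow arrays lay above all wild-type high-fat arrays. Its change was -0.07 ± 0.05 (SE) in knockout mice (limma adjusted p 0.321, 95% interval -0.19 to 0.04) and -0.06 ± 0.06 in wild-type mice (adjusted p 0.478, interval -0.18 to 0.06). Lpl, Cd36 and Fabp4 read between 12.20 and 12.84, near the top of a scale that ended at 13.86 over all arrays; whether the signal was compressed there was not tested.

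Gpihbp1, which carries the lipase to the capillary lumen, was the member that fell most. It read 9.94, 9.61, 9.67 and 9.54 in knockout and 8.97, 9.98 and 9.33 in wild-type mice on high-fat diet, against 10.38, 10.28 and 10.35 in knockout and 10.25, 10.43 and 10.33 in wild-type mice on chow. Every high-fat array lay below every chow array, and the wild-type high-fat arrays were spread most widely, with replicate 2 closest to chow. The log2 change was -0.65 ± 0.17 in knockout mice (1.57-fold, limma adjusted p 0.0105) and -0.91 ± 0.19 in wild-type mice (1.88-fold, adjusted p 0.00161). With the liver mean as a covariate, itself partly aligned with diet in wild-type mice, the change there was -0.57 ± 0.21 and did not pass (adjusted p 0.0652). Of 12 endothelial markers, 4 fell and 0 rose in knockout mice, beside 19.7% of all genes that fell. In wild-type mice 10 fell and 0 rose, beside 18.1%. The wild-type count was 6 without wild-type high-fat replicate 1, 4 when the fit held the wild-type groups alone, and 3 with the liver mean as a covariate. In knockout mice 7 fell without both high-fat arrays nearest to chow. The mean of these markers was 9.54 to 9.88 in knockout and 9.22 to 9.86 in wild-type mice on high-fat diet, against 9.95 to 10.07 in knockout and 10.04 to 10.08 in wild-type mice on chow. In wild-type mice on high-fat diet, Gpihbp1 and this mean had the same order of arrays: replicate 1 lowest, replicate 3 between, replicate 2 highest. In knockout mice on high-fat diet the orders differed: Gpihbp1 was lowest in replicate 4 and the mean in replicate 2.

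Angptl4, the inhibitor of the lipase, did not pass the test for diet. It read 11.27, 11.08, 11.11 and 10.93 in knockout and 11.05, 11.39 and 10.95 in wild-type mice on high-fat diet, against 11.18, 11.19 and 11.21 in knockout and 10.67, 10.91 and 10.96 in wild-type mice on chow. Wild-type chow replicate 1 was the lowest array and wild-type high-fat replicate 2 the highest, and the diets overlapped in both genotypes. The change was -0.09 ± 0.10 in knockout mice (limma adjusted p 0.543) and 0.28 ± 0.11 in wild-type mice (adjusted p 0.0673, 95% interval 0.04 to 0.52). The wild-type change was 0.15 without wild-type high-fat replicate 2 (adjusted p 0.263), and it passed without wild-type high-fat replicate 3 (0.37, adjusted p 0.0275) and with the liver mean as a covariate (0.45, adjusted p 0.0259).

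Around these 3 genes, the list of lipase control held 17 measured genes of 19. In knockout mice 3 rose and 6 fell (median log2 change -0.05), and in wild-type mice 3 rose and 7 fell (median -0.21), beside medians over all genes of -0.06 and -0.03. Of all genes, 14.5% rose and 19.7% fell in knockout mice, and 17.7% and 18.1% in wild-type mice. Syndecan 1 (Sdc1), a heparan sulfate proteoglycan that binds lipoproteins, rose by 1.35 ± 0.20 in knockout and 1.47 ± 0.21 in wild-type mice, and Apoc2, the cofactor that activates the lipase, by 0.77 ± 0.15 and 0.70 ± 0.16. Pcsk6, a convertase of the furin family, fell, at -1.85 ± 0.21 in knockout and -1.47 ± 0.22 in wild-type mice, and Apoc1, an apolipoprotein that inhibits the lipase, at -1.05 ± 0.18 and -1.26 ± 0.19. The list, and the adipocyte markers too, held the intracellular lipases Pnpla2 (ATGL) and Lipe (hormone-sensitive lipase), so the falls counted here include them. In knockout and wild-type mice Pnpla2 fell at -0.72 ± 0.10 and -0.74 ± 0.11 and Lipe at -0.68 ± 0.10 and -0.79 ± 0.11.

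Vldlr, the receptor for triglyceride-rich particles, was higher on average in both high-fat groups without passing. It read 10.20, 9.79, 10.02 and 10.11 in knockout and 9.50, 10.16 and 9.59 in wild-type mice on high-fat diet, against 9.71, 9.73 and 9.79 in knockout and 9.46, 9.53 and 9.59 in wild-type mice on chow. The diets did not overlap in knockout mice, where the lowest high-fat array lay barely above the highest chow array, and in wild-type mice high-fat replicate 2 stood well above chow, replicate 3 barely above its highest array and replicate 1 within its range. The change was 0.29 ± 0.13 in knockout mice (limma adjusted p 0.116) and 0.22 ± 0.14 in wild-type mice (adjusted p 0.262). Without wild-type high-fat replicate 2, the knockout change, itself the same, passed (adjusted p 0.0147) and the wild-type change was 0.02.

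Among other lipoprotein receptors and proteins that handle them, 13 were measured of 16. In knockout mice 3 rose and 4 fell (median -0.01) and in wild-type mice 3 rose and 4 fell (median 0.06; 1 rose and 4 fell with the liver mean as a covariate). The shares of all genes were 14.5% risen and 19.7% fallen in knockout mice, and 17.7% and 18.1% in wild-type mice. Lrp1, a large endocytic receptor of the LDL receptor family, rose by 0.34 ± 0.07 in knockout and 0.39 ± 0.07 in wild-type mice, and Dab2, an adaptor for receptor endocytosis, by 0.63 ± 0.10 and 0.45 ± 0.11. Sortilin (Sort1), which sorts Lpl and other cargo between the Golgi and endosomes, fell, at -0.91 ± 0.08 in knockout and -0.93 ± 0.08 in wild-type mice, and the Wnt co-receptor Lrp5 at -0.72 ± 0.09 and -0.74 ± 0.10. Lrp8, the receptor closest to Vldlr, rose in wild-type mice (0.78 ± 0.17) and stood at 0.17 ± 0.16 in knockout mice, and the lipolysis-stimulated receptor Lsr fell in wild-type mice (-0.68 ± 0.14) and stood at -0.28 ± 0.13 in knockout mice.

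Cd36, the fatty acid transporter of adipocytes and macrophages, did not pass the test for diet. It read 12.69, 12.66, 12.76 and 12.84 in knockout and 12.68, 12.68 and 12.80 in wild-type mice on high-fat diet, against 12.65, 12.69 and 12.76 in knockout and 12.35, 12.72 and 12.72 in wild-type mice on chow. Apart from wild-type chow replicate 1, all arrays lay between 12.65 and 12.84. The change was 0.04 ± 0.08 in knockout mice (limma adjusted p 0.775, 95% interval -0.14 to 0.21) and 0.12 ± 0.09 in wild-type mice (adjusted p 0.312, interval -0.07 to 0.31). The wild-type change was 0.0015 without chow replicate 1 and -0.04 with the liver mean as a covariate.

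The 2 fatty acid binding proteins went apart. Fabp4 (aP2), the form that marks adipocytes, read 12.46, 12.37, 12.44 and 12.47 in knockout and 12.20, 12.36 and 12.31 in wild-type mice on high-fat diet, against 12.57, 12.52 and 12.63 in knockout and 12.55, 12.77 and 12.64 in wild-type mice on chow. All high-fat arrays lay below all chow arrays, by a small margin. Fabp4 fell in wild-type mice at -0.36 ± 0.06 (1.29-fold, limma adjusted p 0.000412), and the change of -0.14 ± 0.06 in knockout mice did not pass (adjusted p 0.0866). The knockout change passed with arrays centred on their medians (adjusted p 0.0312), after a second quantile normalization (0.027), with array weights (0.0328) and when the fit held the knockout groups alone (0.037).

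Fabp5 (mal1), expressed in macrophages as well as adipocytes, read 11.35, 11.18, 11.18 and 11.25 in knockout and 11.23, 11.40 and 11.22 in wild-type mice on high-fat diet, against 9.86, 10.30 and 10.47 in knockout and 9.97, 10.49 and 9.94 in wild-type mice on chow. The high-fat arrays lay close together and all above the chow arrays, which were spread more widely. The rise was 1.03 ± 0.14 in knockout mice (2.04-fold, limma adjusted p 9.51e-05) and 1.15 ± 0.15 in wild-type mice (2.23-fold, adjusted p 5.18e-05). Fabp5 had 3 probe sets. A second rose by 1.01 ± 0.15 in knockout and 1.17 ± 0.16 in wild-type mice, and the third, dim at 4.31 to 5.11 over all arrays, by 0.61 ± 0.09 and 0.42 ± 0.09. RefSeq also lists a pseudogene copy, Fabp5l2, and which probe set reads which copy was not tested.

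Of 24 measured genes of fatty acid transport, binding and activation (26 listed), 3 rose and 8 fell in knockout mice (median -0.10) and 5 rose and 8 fell in wild-type mice (median -0.09; 3 rose and 7 fell with the liver mean as a covariate). The count that fell in knockout mice was 5 without knockout chow replicate 1, 4 without knockout chow replicate 3 and 5 without knockout high-fat replicate 4, and the count that rose was 5 with array weights. Of all genes, 14.5% rose and 19.7% fell in knockout mice, and 17.7% and 18.1% in wild-type mice. Fabp7, a binding protein best known from brain, rose most, by 2.15 ± 0.32 in knockout mice (4.43-fold) and 3.37 ± 0.34 in wild-type mice (10.4-fold). It averaged 8.68 ± 0.13 (SD, n = 4) in knockout and 9.27 ± 0.86 (SD, n = 3) in wild-type mice on high-fat diet, against 6.54 ± 0.41 (SD, n = 3) in knockout and 5.89 ± 0.39 (SD, n = 3) in wild-type mice on chow. The acyl-CoA synthetase Acsl5 rose by 0.30 ± 0.06 in knockout and 0.48 ± 0.07 in wild-type mice. The caveolar protein Cav2 fell, at -0.50 ± 0.09 and -0.72 ± 0.10, the sterol and lipid carrier Scp2 at -0.63 ± 0.15 and -1.03 ± 0.16, and Zdhhc4, a palmitoyltransferase that acts on Cd36, at -0.45 ± 0.07 and -0.47 ± 0.07.

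Fabp1, the liver form, was the single gene of the 6 pathway lists that differed between genotypes on chow (-2.38 ± 0.41 for knockout minus wild type, limma adjusted p 0.0485). It read 4.52 to 5.52 in knockout and 4.90 to 6.70 in wild-type mice on high-fat diet, against 5.12 to 5.35 in knockout and 7.03 to 8.30 in wild-type mice on chow. The liver transcripts given above had the same order on chow, 6.06 to 6.23 in knockout mice against 7.57 to 8.63 in wild-type mice. With their mean as a covariate 0 of all genes passed on chow. Because that mean did not overlap between the genotypes on chow, the covariate takes up much of this contrast. The loss of calls therefore says nothing about Fabp1.

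Lipa, the lysosomal acid lipase, rose strongly in both genotypes. It read 11.83, 11.95, 12.03 and 12.00 in knockout and 12.24, 11.84 and 12.19 in wild-type mice on high-fat diet, against 10.15, 9.91 and 10.45 in knockout and 9.98, 9.75 and 10.15 in wild-type mice on chow. Every high-fat array lay well above every chow array in both genotypes. The rise was 1.79 ± 0.13 in knockout mice (3.45-fold, limma adjusted p 4.05e-07) and 2.13 ± 0.14 in wild-type mice (4.37-fold, adjusted p 1.23e-07).

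Genes of lysosomal lipid breakdown and export moved in the same direction as Lipa for the most part. Of 20 measured (22 listed), 14 rose and 1 fell in knockout mice (median 0.42) and 16 rose and 1 fell in wild-type mice (median 0.65), beside 14.5% and 17.7% of all genes that rose. The galactosidase Gla rose by 1.98 ± 0.13 in knockout and 2.52 ± 0.13 in wild-type mice, the galactosylceramidase Galc by 1.43 ± 0.08 and 1.77 ± 0.08, and the hexosaminidase subunit Hexa by 0.97 ± 0.08 and 1.35 ± 0.08. The lysosomal phospholipase Pla2g15 rose by 0.99 ± 0.10 and 1.33 ± 0.11, and Npc1, which exports cholesterol from lysosomes, by 0.72 ± 0.08 and 0.87 ± 0.09. The acid sphingomyelinase Smpd1 was the one that fell, at -0.36 ± 0.07 and -0.29 ± 0.07 (in wild-type mice 0 fell with the liver mean as a covariate). Macrophage markers moved with these genes: 14 of 15 rose in each genotype (1 fell in knockout mice), and their mean was 10.64 to 10.92 in knockout and 10.63 to 11.04 in wild-type mice on high-fat diet, against 9.37 to 9.63 in knockout and 9.13 to 9.46 in wild-type mice on chow. Among them the macrophage antigens Adgre1 and Cd68 rose by 1.95 ± 0.13 each in knockout mice and by 2.32 ± 0.13 and 2.29 ± 0.14 in wild-type mice.

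Msr1 showed the largest change of the 10 genes in wild-type mice. It read 9.13, 9.54, 9.53 and 9.51 in knockout and 10.09, 9.23 and 9.95 in wild-type mice on high-fat diet, against 7.64, 7.40 and 7.80 in knockout and 7.18, 7.01 and 7.45 in wild-type mice on chow. The diets stood far apart in both genotypes, and the 2 high-fat arrays nearest to chow on the first principal component were also the lowest for Msr1. The rise was 1.81 ± 0.19 in knockout mice (3.52-fold, limma adjusted p 6.81e-06) and 2.54 ± 0.20 in wild-type mice (5.82-fold, adjusted p 5.22e-07).

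Olr1, the receptor for oxidised LDL, was dim on chow, where it lay under the array medians over genes, as it also did on wild-type high-fat replicate 1. It read 7.23, 7.30, 6.85 and 6.74 in knockout and 6.47, 6.66 and 7.19 in wild-type mice on high-fat diet, against 5.27, 5.21 and 5.14 in knockout and 4.77, 5.13 and 4.88 in wild-type mice on chow. No high-fat array overlapped with chow, and the knockout and wild-type arrays overlapped on high-fat diet. The rise was 1.82 ± 0.17 in knockout mice (3.54-fold, limma adjusted p 3.46e-06) and 1.85 ± 0.18 in wild-type mice (3.60-fold, adjusted p 4.24e-06).

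All 15 other scavenger receptors listed were measured, and they did not share one direction. In knockout mice 8 rose and 2 fell (median 0.26), and in wild-type mice 6 rose and 3 fell (median 0.08). In knockout mice 5 rose without knockout chow replicate 3, without knockout high-fat replicate 2 and with arrays centred on their medians, 1 fell without knockout chow replicate 2 or 3, and in wild-type mice 0 fell with the liver mean as a covariate. The shares of all genes were 14.5% risen and 19.7% fallen in knockout mice, and 17.7% and 18.1% in wild-type mice. Cxcl16, a membrane chemokine that also binds oxidised lipoprotein, rose by 1.23 ± 0.16 in knockout and 1.54 ± 0.17 in wild-type mice. Stabilin 1 (Stab1) rose by 0.78 ± 0.11 and 1.07 ± 0.12, its relative Stab2 by 0.51 ± 0.10 and 0.57 ± 0.11, the mannose receptor Mrc1 by 0.71 ± 0.11 and 0.78 ± 0.11, and the lysosomal membrane protein Scarb2 by 0.24 ± 0.09 and 0.54 ± 0.09. The haemoglobin scavenger receptor Cd163 fell, at -1.07 ± 0.17 in knockout and -0.90 ± 0.18 in wild-type mice.

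**Figure D3:**
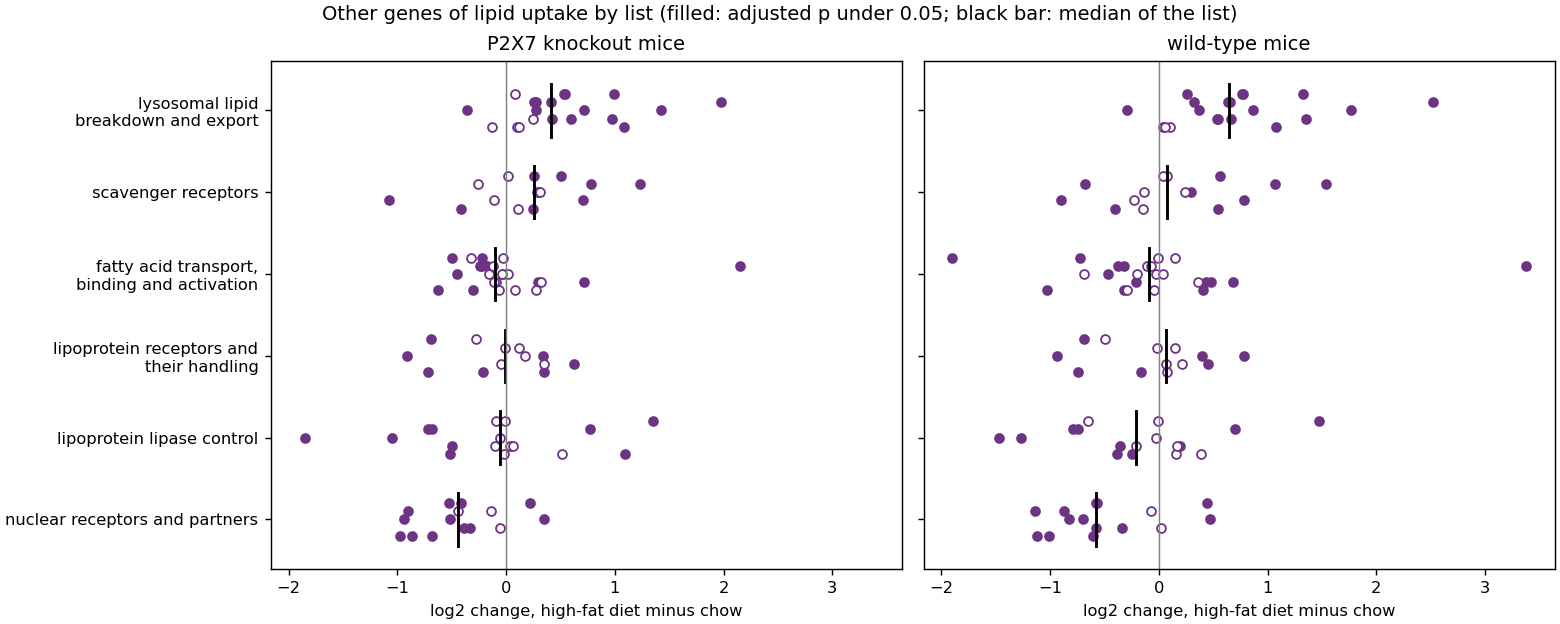
Log2 change with high-fat diet (horizontal axis) of the other genes of lipid uptake and handling, 1 point a gene, by list, in knockout (left) and wild-type (right) mice; filled points passed an adjusted p of 0.05 and black bars are list medians. Medians are 0.42 and 0.65 for lysosomal genes and -0.44 and -0.58 for nuclear receptors and their partners.

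RefSeq promoter windows (build GRCm38.p6) were at hand for 4 of the 10 genes. Those of Lipa and Olr1, which rose together, and of Cd36, which did not pass, are shown as the 250 bases before the annotated start, on the strand of the gene. Capitals mark TGANTCA (bound by AP-1), GAGGAA (the core bound by ETS factors such as PU.1), CACGTG (bound by TFEB and its relatives) and AGGTCA (bound by nuclear receptors), each searched on both strands; no matches shown here overlap.
Lipa, chr19:34527475-34527724, minus strand: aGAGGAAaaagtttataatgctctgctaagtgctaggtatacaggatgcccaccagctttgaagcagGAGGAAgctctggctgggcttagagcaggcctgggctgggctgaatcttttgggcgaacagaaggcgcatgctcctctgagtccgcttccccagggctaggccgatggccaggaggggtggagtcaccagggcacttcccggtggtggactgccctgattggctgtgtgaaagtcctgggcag
Olr1, chr6:129507166-129507415, minus strand: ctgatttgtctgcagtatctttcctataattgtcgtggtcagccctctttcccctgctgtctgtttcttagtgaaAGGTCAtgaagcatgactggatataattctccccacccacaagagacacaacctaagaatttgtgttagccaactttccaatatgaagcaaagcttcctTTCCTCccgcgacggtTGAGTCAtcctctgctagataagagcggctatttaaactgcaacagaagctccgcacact
Cd36, chr5:17835897-17836146, minus strand: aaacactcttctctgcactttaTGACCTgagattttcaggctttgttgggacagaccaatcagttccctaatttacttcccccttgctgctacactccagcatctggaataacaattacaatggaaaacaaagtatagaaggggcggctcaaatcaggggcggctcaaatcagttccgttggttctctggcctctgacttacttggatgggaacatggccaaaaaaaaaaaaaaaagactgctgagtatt

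GAGGAA stood in the windows of Lipa (on the gene's strand, from base 249 and from base 183 before the start), Olr1 (on the other strand, from base 76) and Vldlr, which did not pass for diet (on the other strand, from base 171, in 1 of its 2 windows), and in 23.3% of all 32851 promoter windows. TGANTCA stood in that of Olr1, from base 60, and in 6.75% of all windows, AGGTCA in those of Olr1 and Cd36 and in 14.0%, and CACGTG in none of the 3 and in 6.02%. A match describes the letters only.

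Nuclear receptors and the factors that work with them, several of which drive Lpl, Cd36, Fabp4 and Angptl4 in fat cells, fell with diet. Of 15 measured (18 listed), 2 rose and 10 fell in knockout mice (median -0.44) and 2 rose and 11 fell in wild-type mice (median -0.58), beside 19.7% and 18.1% of all genes that fell. Pparg, the master regulator of the adipocyte, fell, at -0.51 ± 0.08 in knockout and -0.69 ± 0.09 in wild-type mice, its partner Rxra at -0.69 ± 0.09 and -0.61 ± 0.10, and Cebpa, which maintains the mature adipocyte, at -0.98 ± 0.11 and -1.01 ± 0.12. The glucocorticoid receptor Nr3c1 fell, at -0.52 ± 0.07 and -0.58 ± 0.07, and Ppara, which drives fatty acid oxidation, at -0.86 ± 0.18 and -1.12 ± 0.19. The 2 that rose were Srebf2, the activator of cholesterol synthesis (0.22 ± 0.07 and 0.45 ± 0.08), and Hif1a, the hypoxia factor (0.35 ± 0.08 and 0.47 ± 0.09). In knockout mice 1 rose when 1 array of either knockout group was left out in 5 of 7 cases (all but replicates 1 and 4 on high-fat diet) and with arrays centred on their medians. Adipocyte markers fell beside them for the most part: of 12, 10 fell and 1 rose in each genotype. Their median log2 change was -0.67 in knockout and -0.74 in wild-type mice. The glucose transporter Slc2a4 fell most of them, at -2.25 ± 0.20 in knockout and -2.31 ± 0.21 in wild-type mice.

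Whether members changed unequally with diet was asked of 8 differences within each array, with diet labels permuted within each genotype. This exact two-sided test has 700 arrangements and a smallest possible p of 0.00143, and p was adjusted over the 8. Fabp5 rose relative to Fabp4, by 1.17 in knockout and 1.52 in wild-type mice (p 0.00143, adjusted 0.0019). Gpihbp1 fell relative to Lpl, at -0.57 and -0.85, and relative to the mean of the 12 endothelial markers, at -0.31 and -0.39 (each p 0.00143, adjusted 0.0019). For both Gpihbp1 differences all 7 high-fat arrays lay below the chow arrays of their genotype. Single endothelial markers differed from their mean. Ptprb changed by -0.72 ± 0.13 in knockout and -0.83 ± 0.14 in wild-type mice, Robo4 by -0.87 ± 0.14 and -0.81 ± 0.15, and Tek by -0.14 ± 0.11 and -0.53 ± 0.12. Beside the changes of Gpihbp1 given above, Ptprb and Robo4 fell more in knockout mice and less in wild-type mice, and Tek less in both.

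Lipa rose relative to the mean of the 15 macrophage markers, by 0.48 in knockout and 0.59 in wild-type mice, and Msr1 by 0.51 and 1.00 (each exact p 0.00143, adjusted 0.0019). Single markers differed from their mean: Ms4a7 rose by 2.72 ± 0.17 and 3.09 ± 0.18, above the changes of both. The changes of Adgre1 and Cd68 were above that of Lipa in both genotypes, and above that of Msr1 in knockout mice alone. Cd36 rose relative to the mean of the 12 adipocyte markers, by 0.78 and 0.97 (exact p 0.00143, adjusted 0.0019). The change of Cd36 itself, 0.04 and 0.12, did not pass, and that mean was lower on all high-fat than on all chow arrays. Single adipocyte markers ran from -2.25 to 0.29 in knockout and from -2.31 to 0.37 in wild-type mice, so the highest lay above Cd36. The same difference was not taken for Lpl or Fabp4. Vldlr rose relative to Lpl, by 0.36 and 0.28 (exact p 0.00429, adjusted 0.0049), and the wild-type value was 0.08 without high-fat replicate 2. Angptl4 relative to Lpl stood at -0.02 in knockout and 0.34 in wild-type mice and did not pass (exact p 0.164, adjusted 0.164), but passed without knockout high-fat replicate 4 (adjusted p 0.045). Such differences show unequal change and not which of the pair moved.

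**Figure D4:**
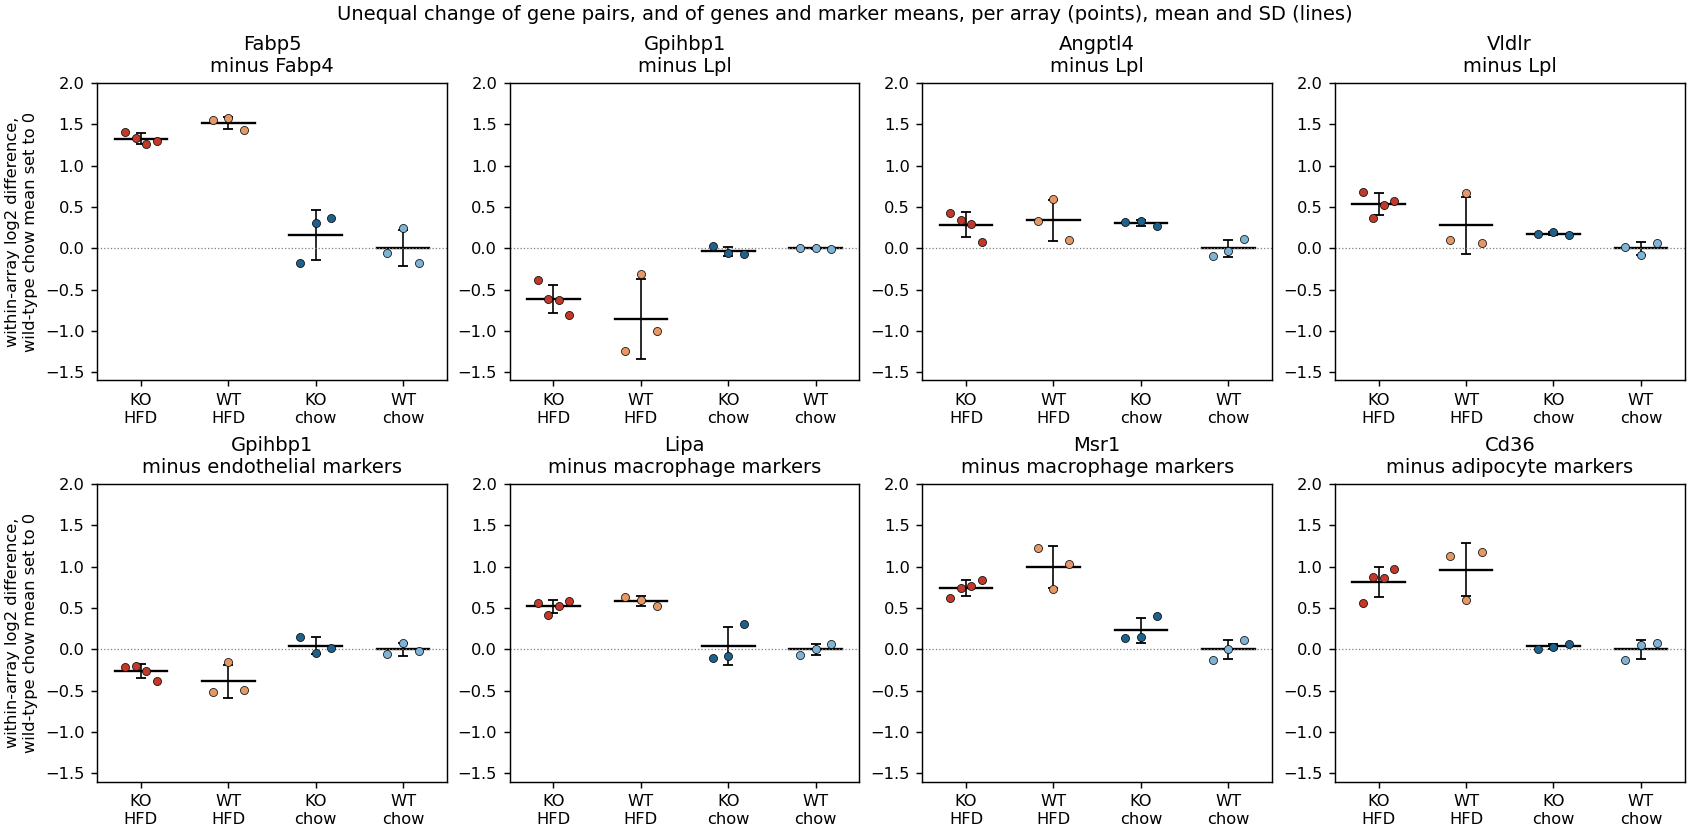
Within-array log2 difference between 2 genes, or between a gene and the mean of a marker list, on every array (points) with group mean and SD, shifted so that the wild-type chow mean is 0 (vertical axes). The high-fat arrays do not overlap with the chow arrays of their genotype except for Angptl4 minus Lpl, and for Vldlr minus Lpl in wild-type mice the gap is too small to see.

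Loss of P2X7 was asked about on each diet. On high-fat diet 0 of the 10 genes passed by limma (8 of all genes did, 0.0425%: 0.0106% rose and 0.0319% fell), and 1 had an unadjusted p under 0.05, as 7.41% of all genes had. That was Fabp4, at 0.15 ± 0.06 for knockout minus wild type (adjusted p 0.632), the single member whose knockout arrays did not overlap with the wild-type ones (6.68% of all genes). Msr1 stood at -0.33 ± 0.19, Lipa at -0.14 ± 0.13, Olr1 at 0.25 ± 0.17 and Fabp5 at -0.04 ± 0.14, with 95% intervals of -0.73 to 0.08, -0.41 to 0.14, -0.12 to 0.63 and -0.36 to 0.27. Gpihbp1 stood at 0.26 ± 0.17 (adjusted p 0.788) and Vldlr at 0.28 ± 0.13 (adjusted p 0.682). Without wild-type high-fat replicate 2, both passed, Gpihbp1 at 0.54 ± 0.11 (adjusted p 0.0435) and Vldlr at 0.48 ± 0.09 (adjusted p 0.0314), and 177 of all genes passed in place of 8. Lpl, Cd36 and Angptl4 stood at 0.02 ± 0.05, 0.01 ± 0.08 and -0.03 ± 0.10.

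On chow 0 of the 10 genes passed by limma (25 of all genes did, 0.133%: 0.0478% rose and 0.085% fell) and 1 had an unadjusted p under 0.05, as 9.62% of all genes had. That was Angptl4, at 0.34 ± 0.11 for knockout minus wild type (1.27-fold, adjusted p 0.341). For Angptl4, Vldlr and Olr1 all knockout chow arrays lay above all wild-type chow arrays (14.9% of all genes did not overlap). Vldlr stood at 0.21 ± 0.14, Olr1 at 0.28 ± 0.18, Msr1 at 0.40 ± 0.20 and Lipa at 0.21 ± 0.14, with adjusted p of 0.659, 0.66, 0.551 and 0.659. With the liver mean as a covariate, Lipa stood at -0.09 and Msr1 at -0.21, in a fit that cannot separate that mean from genotype on chow.

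The diet effect was not shown to differ between genotypes for any of the 10 genes (0 called by limma, as for all 18820 genes, 0%). Without wild-type high-fat replicate 2, 106 genes passed, none of them a member. Over the alternatives Msr1 came nearest, with a lowest limma adjusted p of 0.0536, and its value reached -0.99 with 1 array left out. At an unadjusted p under 0.05 there were 3, as for 9.72% of all genes: Msr1, at -0.73 ± 0.27 for knockout minus wild type (adjusted p 0.433), Angptl4, at -0.37 ± 0.15 (adjusted p 0.472), and Fabp4, at 0.23 ± 0.09 (adjusted p 0.434). The intervals of the other 7 genes include 0, and that of Lipa was -0.75 to 0.06. Of 104 genes in the 6 pathway lists, 0 passed for the interaction or between genotypes under high-fat feeding, with 16 and 12 at an unadjusted p under 0.05.

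Ordered by group mean, Lipa and Msr1 ran from wild-type chow through knockout chow and knockout high-fat to wild-type high-fat, and Fabp4 in the opposite order. Olr1 was highest in knockout mice on high-fat diet and Gpihbp1 lowest in wild-type mice on high-fat diet. In each of these orders the neighbours on the same diet did not differ past the threshold, and for Lpl, Cd36, Vldlr and Angptl4 none of the contrasts fitted did.

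Over the 13 arrays, the profile of Lipa, centred on its own mean, was nearest to those of Lgals3 (galectin 3) and the UDP receptor P2ry6, at a root mean square distance of 0.0852 and 0.0899 on the log2 scale. Nearest to Msr1 were Atp8b4 (0.136) and the actin-capping protein Capg (0.138), to Olr1 Siglec1 (0.232) and Neil3 (0.232), and to Fabp5 Tmem97 (0.161) and Nedd4l (0.168). Nearest to Gpihbp1 were Adamts9 (0.0835) and Prkce (0.0944), and to Fabp4 Aplp2 (0.0382) and Ywhab (0.0530). For the 4 genes that did not pass for diet, the nearest were Olfr294 and Olfr157 for Lpl (0.0304 and 0.0309), Nek4 and Gspt1 for Cd36 (0.0415 and 0.0455), Gcnt2 and Mest for Vldlr (0.0889 and 0.0922), and Ptpa and Mrps23 for Angptl4 (0.0813 and 0.0828). Of these 8, Mrps23 passed for diet in wild-type mice (0.32 ± 0.10, limma adjusted p 0.0193). The distance is not scaled by spread, so a gene that hardly varied lies near others that hardly varied, and this shows no shared response. Among the members themselves the closest pair that rose was Lipa and Msr1, at 0.184.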

How the data were processed

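RNA (100 ng total) was hybridised to Affymetrix gene arrays, 1 per sample, per the labels' protocols. The authors deposited log2 values for each probe set on each array, made with RMA per the submitters' processing notes; its version and the genome build are not given in the sources used here. Nothing further was normalised. Of 35556 probe sets, 21218 were paired with 1 gene symbol, 1881 with several and 12457 with none; only the first were used, 1 per gene (highest mean), which gave 18820 genes.

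limma 3.58.1 (R 4.3.3) fitted 1 mean per group to all 13 arrays with an intensity trend. Log2 changes carry their SE, and calls required an adjusted p under 0.05 (Benjamini-Hochberg, each contrast over all genes); intervals are 95%. Fold changes are 2 to the power of the log2 change. Within-array differences were tested by exact permutation in Python 3.11.15 with numpy 2.4.6. The limma fit was tested on simulated arrays. The number of arrays limits the precision.

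The 10 genes and all lists were chosen with earlier results of these data known. The 6 pathway and 9 marker lists had 207 entries between them; 19 had no measured gene, and a synonym matched 1. The naming rule gave up to 5 called genes a pathway list and 3 a marker list, by the smallest p for diet in wild-type mice, and the 2 most alike genes per member; Fabp1, Smpd1, Apoc2, Dab2, Cd163, Srebf2 and Hif1a lie outside it and were named after their values were seen. Not every marker the rule allowed is printed. Alternatives varied the variance model, scaling, dim-gene filter, probe sets, genes tested, array weights, groups fitted, replicate block and arrays. After the data had been seen, a liver covariate and a fit without 2 arrays at once were added. Replicate numbers did not pair the samples (18 same-number pairs, correlation -0.298 to 0.222).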

Additional observations from a re-analysis of the deposited data

Results flagged for a closer look

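In the group of 4 arrays, 83 sets of values were examined for a sample far from the others, and 4 had one, where chance gives about 1 in 20. For knockout mice on high-fat diet, Msr1 of replicate 1 read 9.13, below the 9.51 to 9.54 of the others, and its rise without that array was 1.91. Slc2a4 of the same array read 8.51, above the 7.97 to 8.06 of the others. Stab2 of replicate 2 read 5.79, above 5.53 to 5.55, and the epididymis transcript Lcn9 of replicate 3 read 3.92, below 4.12 to 4.14. No member's diet effect was shown to differ between genotypes.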

How the results depend on the processing

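Each member's change in each contrast was recomputed under the alternatives. Of 1240 recomputed calls, 1228 stayed on the same side of the threshold, 1 was lost, 11 were gained and 0 turned direction past it; the causes were not tested. The lost call was Gpihbp1 in wild-type mice with the liver mean as a covariate, which left 1 member that fell. In knockout mice 2 members fell, with Fabp4 added, after median centring, after a second quantile normalization, with array weights and when the fit held the knockout groups alone. Leaving out 1 array gave 0 to 2 members higher in knockout than in wild-type mice on high-fat diet, 2 without wild-type high-fat replicate 2. The mean diet effect on Angptl4 minus Lpl was 0.10 to 0.22 with 1 array left out, and passed at 0.20 without knockout high-fat replicate 4. Vldlr passed in knockout mice when the fit held those groups alone (adjusted p 0.0283), without wild-type high-fat replicate 2, and without both high-fat arrays nearest to chow (0.23, adjusted p 0.0375). With the replicate number as a block, 5597 genes were called for diet in knockout mice, in place of 6429, and 0 between genotypes on high-fat diet, in place of 8. Number 4 occurs in knockout mice on high-fat diet alone, so the block also takes that array out of the contrasts, and leaving it out by itself gave 5811 and 6. The block changed no count of members, and 4 of 13 arrays correlated best with an array of their own number. Over all alternatives, the genes called numbered 4361 (liver covariate) to 7355 (median centring) for diet in wild-type mice, 5105 (without knockout chow replicate 2) to 7652 (array weights) for diet in knockout mice, 0 (replicate block) to 177 (without wild-type high-fat replicate 2) between genotypes on high-fat diet, 0 (liver covariate) to 54 (without both high-fat arrays nearest to chow) between genotypes on chow, in place of 25, and 0 to 106 (without wild-type high-fat replicate 2) for the interaction, in place of 0. The number of arrays limits all genotype comparisons, and compression near the top of the scale was not tested.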
